A study of Mus musculus with 653 samples.

Results

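Lgr5-GFP+ cells of the embryonic mouse liver were compared between embryonic days E10.5 and E13.5. All cells whose labels give the Lgr5-GFP+ sort were taken, which is 291 of the 653 cells of the series. Of these, 80 are from E13.5 and the others from E10.5. The embryos were sired by Lgr5-EGFP-IRES-creERT2 males (C57BL/6 background) and their mothers were MF1, so both stages carry the same reporter. In these mice GFP and a tamoxifen-inducible Cre are expressed from the *Lgr5* locus, and no Cre induction entered this comparison. Livers were dissociated, with a longer digestion at E13.5 than at E10.5, and single cells that bound the Liv2 antibody, lacked CD31 and CD45 and were positive for GFP were sorted one by one. The other cells of the series were sorted by the same gate without regard to GFP and are called bulk cells below. Each library was made from 1 cell by Smart-seq2, which amplifies full-length cDNA and adds no molecular identifiers.

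LGR5 is a receptor for R-spondins. R-spondin binding slows the removal of Frizzled receptors from the cell surface and so strengthens Wnt signalling, and *Lgr5* is itself a Wnt target that marks stem cells in several epithelia. The liver bud grows out of the foregut endoderm as hepatoblasts, which give rise to hepatocytes and cholangiocytes, and it is surrounded by mesenchyme of the septum transversum. Between E10.5 and E13.5 haematopoietic cells colonise the organ, sinusoidal endothelium and resident macrophages appear in it, and it becomes the main site of blood formation. Liv2 is an antigen of hepatoblasts, CD31 (*Pecam1*) is a protein of endothelial cells and CD45 (*Ptprc*) of leukocytes, so the gate was meant to keep hepatoblasts.

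Cells are assigned to 5 library pools, and nothing says which embryo or litter a cell came from. The study describes several sorts as biological replicates, but which sort a cell or pool belongs to is not given in the sources used here. Each stage was therefore treated as 1 sample, no test between stages was made, and the pools, each holding cells of both stages, serve as batches that may or may not be separate sorts. Pools 1 to 5 hold 45, 47, 40, 41 and 38 cells at E10.5 and 13, 27, 19, 14 and 7 at E13.5, so that a value of pool 5 at E13.5 rests on 7 cells. Reads on genes per cell were alike at both stages, 463347 to 2279700 (median 1243438) at E10.5 and 537264 to 2246344 (median 1144010) at E13.5, while genes detected per cell had a median of 6120 and 5035. Fewer genes were detected in pools 1 and 2, with medians of 4526 and 4796 at E10.5 and of 4212 and 3662 at E13.5, than in pools 3 to 5, where the medians were 6816 to 7422 and 5363 to 6021. The fewest genes in any cell of E13.5 were 4004 in pool 1, 3158 in pool 2 and 4970 to 4994 in pools 3 to 5, and the study set a separate limit on genes per cell for each sort. Whether pools 3 to 5 come from separate sorts was not tested. Levels below are reads summed over all cells of a stage per 1000000 reads on genes (RPM). Intervals are 95% exact intervals, Poisson for levels and Clopper-Pearson for shares of cells, and they cover counting error only. The spread given beside a log2 ratio is the SD of the ratios found within the 5 pools.

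*Lgr5* itself (GRCm38, chr10:115450311-115587780, minus strand), whose locus drives the sorted reporter, was read first. Its level was 65.3 RPM (64.3 to 66.3) at E10.5 and 23.2 RPM (22.2 to 24.2) at E13.5, a log2 ratio E13.5 over E10.5 of -1.49 with an SD over pools of 2.92. By pool, it stood at 5.35, 86, 107.2, 66 and 60.5 RPM at E10.5 and at 0, 39, 13.8, 39.5 and 0.333 RPM at E13.5. Each pool was lower at E13.5, but pool 1 at E10.5 was below pools 2 to 4 at E13.5. More than 10 reads of *Lgr5* were found in 62 cells at E10.5 (29.4%, 23.3 to 36) and in 3 of 80 at E13.5 (3.75%, 0.78 to 10.6). The 3 cells at E13.5 were strongly positive, at 224 to 846 RPM with a median of 628, while the 62 cells at E10.5 ranged from 7.21 to 1505 with a median of 135.9. At least 1 read was found in 53.1% and 38.8% of cells. In the bulk cells *Lgr5* stood at 2.69 RPM at E10.5 and at 0.412 RPM at E13.5, so the summed level was higher in the GFP+ sort at both stages. At E13.5 this rests mainly on the 3 cells, and pools 1 and 5 of the GFP+ sort (0 and 0.333 RPM) were below the bulk level. The part of marker content, which also differed between the sorts, was not tested. Most cells sorted as GFP+ at E13.5 thus had no *Lgr5* reads in their library.

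The labels call all cells hepatoblasts, and this was checked against marker lists. A cell was counted as positive for a list when at least 3 of its genes had more than 10 reads. Hepatocyte lineage markers such as *Afp*, *Alb* and the fibrinogen genes were positive in 58 cells at E10.5 (27.5%, 21.6 to 34) and in 1 of 80 at E13.5 (1.25%, 0.0316 to 6.77). Most positive cells at E10.5 came from 1 library pool, with 1, 36, 7, 6 and 8 cells in pools 1 to 5, and pool 2 reached 76.6%. Without pool 2 the difference between stages shrank from -26.2 to -11.5 percentage points. Cholangiocyte markers were positive in 19 cells at E10.5, all in pools 3 to 5, and in 0 of 80 at E13.5. By the rule of 3 counts this allows a share of up to 3.75%, and the exact interval reaches 4.51%. The name hepatoblast is therefore not borne out for the GFP+ cells of E13.5. At E10.5 the hepatocyte lineage list bears it out for most cells of pool 2 but not of the other pools. In the bulk cells of E10.5 that list was positive in 2.96% of cells. All cells are called by their sort here.

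Mesenchyme markers, genes of fibrillar collagens and of connective tissue cells, were positive in 55.5% of cells at E10.5 (48.5 to 62.3), with 28, 13, 26, 32 and 18 cells in pools 1 to 5, and in 21 cells at E13.5 (26.2%, 17 to 37.3), with 3, 9, 3, 4 and 2. Endothelial markers were positive in 6 cells at E10.5 (2.84%, 1.05 to 6.09) and in 20 of 80 at E13.5 (25%, 16 to 35.9). By pool, the 20 cells numbered 0, 1, 10, 8 and 1, so that 18 of them lay in pools 3 and 4. Leukocyte markers were positive in 2 cells at E10.5 (0.948%, 0.115 to 3.38) and in 16 at E13.5 (20%, 11.9 to 30.4), found in all 5 pools with 3, 1, 6, 2 and 4 cells. The endothelial and leukocyte counts stand beside a gate set to leave out CD31+ and CD45+ cells. *Pecam1* had more than 10 reads in 25 of 80 cells at E13.5 and in 14 at E10.5, and *Ptprc* in 7 and 0. Erythroid markers were positive in 4 and 9 cells (1.9% and 11.2%), and megakaryocyte markers in 2 and 4. In the bulk sort of E13.5, 81.1% of cells were erythroid-positive and 1 cell was mesenchyme-positive, so the marker content of the GFP+ and bulk sorts differed at E13.5.

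**Figure D1:**
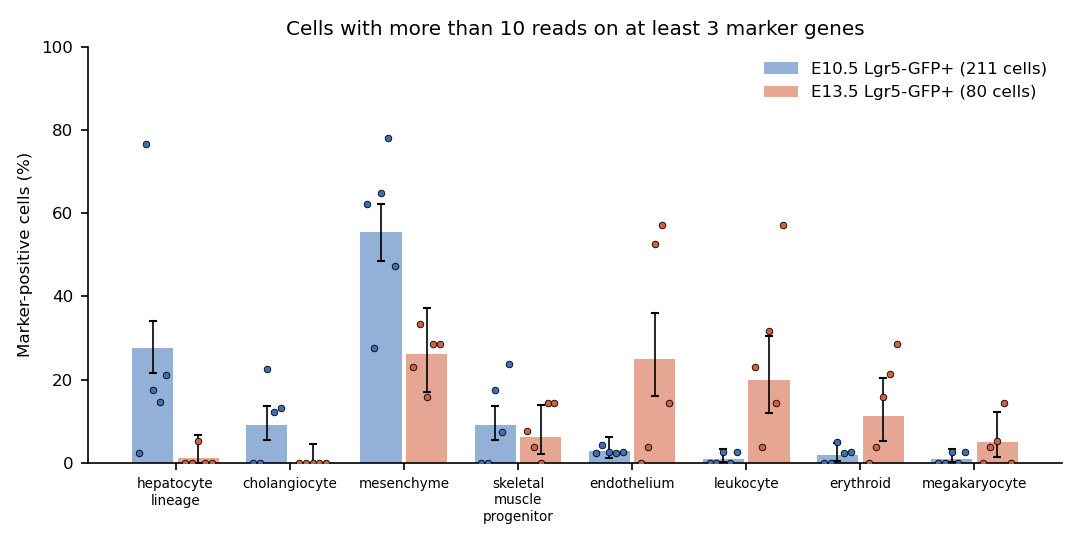
Share of marker-positive Lgr5-GFP+ cells for 8 marker lists; bars are the share in all cells of a stage, error bars the 95% exact binomial interval and points the 5 library pools. Hepatocyte lineage and mesenchyme shares were higher at E10.5 and endothelium and leukocyte shares at E13.5, with hepatocyte lineage cells at 76.6% in pool 2 of E10.5.

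None of the hepatocyte lineage, erythroid, leukocyte, megakaryocyte, mesenchyme and endothelium lists was positive in 36 cells at E10.5 and 26 at E13.5. Of the 26, 18 lay in pool 2, 7 in pool 1 and 1 in pool 4. Their genes, examined after the values were seen, included regulators and parts of skeletal muscle. At least 3 of *Myog*, *Myod1*, *Vgll2*, *Car3*, *Tnnt1*, *Neb*, *Des* and *Rbm24* had more than 10 reads in 16 of these 26 cells, in 20 of all 80 cells at E13.5 (25%) and in 5 at E10.5 (2.37%). The 20 cells numbered 6, 10, 0, 3 and 1 in pools 1 to 5. Of the bulk cells, 2 at E10.5 and 0 at E13.5 were positive for the set. A second set chosen in the same way, the epithelial genes *Epcam*, *Cdh1*, *Cldn6*, *Cldn7*, *Krt8* and *Krt18*, was positive in 36 cells at E10.5 (17.1%) and in 0 at E13.5. Of the 36 epithelial cells, 14 were positive for none of the 6 lists, and 32 lay in pools 3 to 5. At least 2 of the 6 lists were positive in 11 cells at E10.5 (5.21%) and 9 at E13.5 (11.2%). No doublet caller was run, and these cells were left out in a repeat given at the end.

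For the comparison of all genes, 9606 genes with more than 10 reads in at least 10% of the cells of either stage were tested against a fixed rule of size. A gene was called when the summed levels differed at least 4-fold, the ratio had the same direction in all 5 pools, and at least 10% of the cells of the higher stage had more than 10 reads. The rule called 289 genes higher at E13.5 (3.01% of those tested) and 535 higher at E10.5 (5.57%). By the summed levels alone, 673 (7.01%) and 730 (7.60%) differed at least 4-fold. The median log2 ratio of all tested genes was -0.12. A gene that passed the filter through 1 stage only had more positive cells there by construction, so counts of list members past the fold describe the lists and are no support for a direction. Within a pool, 1 read was added to both stages. Since fewer cells were sequenced at E13.5, a gene with 0 reads at both stages of a pool then got a log2 ratio of 0.99 to 2.39, which favours calls at E13.5. With the added read in proportion to depth, chosen after seeing the data, 1.99% of the tested genes were called higher at E13.5 and 549 genes (5.72%) at E10.5. All those called at E13.5 are among the 289, and all 535 among the 549. Because the sorted cells differed in marker content between stages, a summed level can differ through the number of cells of a type or through the RNA per cell, and these cannot be told apart in the sums. Numbers of cells are therefore given beside the levels. Stage, length of digestion and marker content cannot be told apart either.

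**Figure D2:**
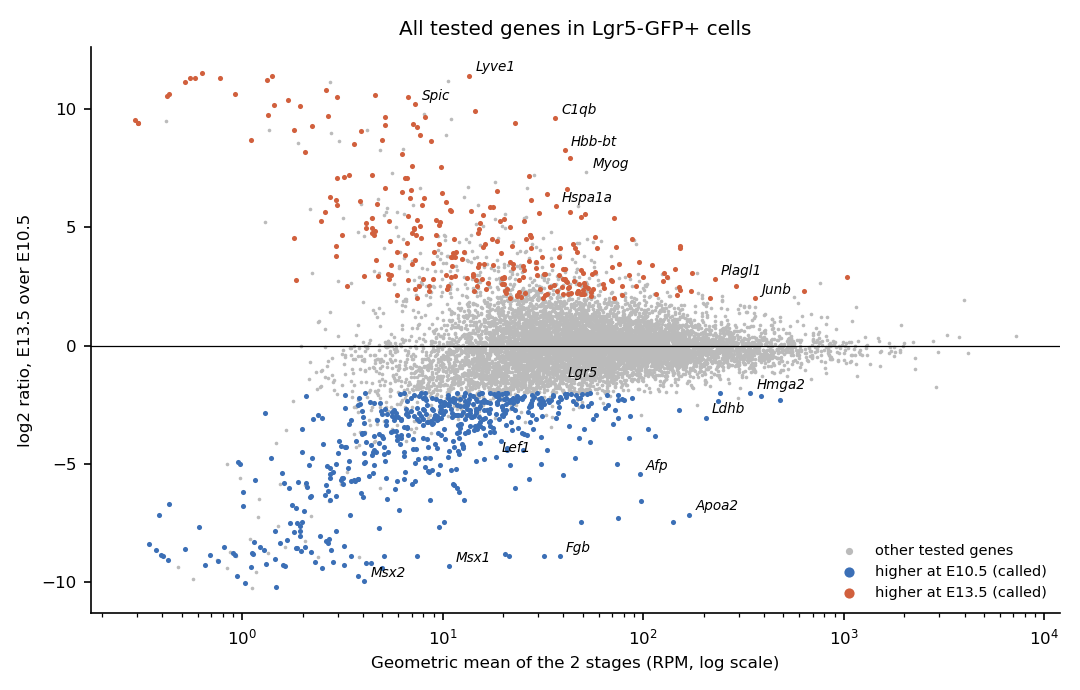
Log2 ratio of summed levels, E13.5 over E10.5, against the geometric mean of both levels (RPM, log axis) for the 9606 tested genes; coloured points are the 535 genes called higher at E10.5 and the 289 called higher at E13.5. *Lyve1* and *Spic* lie near the top, *Msx2* and *Msx1* near the bottom, and *Lgr5* is not called.

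Among genes higher at E10.5, the hepatocyte lineage list stood out by its median log2 ratio of -8.35. Of its 12 genes, all tested, 11 were called and all 12 were past the fold, beside 5.57% of all tested genes called higher at E10.5. Of these genes, all but *Apoa2* passed the filter through E10.5 only. *A1cf*, an RNA-binding cofactor of apolipoprotein B mRNA editing, was the one not called, having 0 reads in pool 1 at both stages. Summed over the list, the level was 6425 RPM at E10.5 and 53.1 RPM at E13.5, and by pool 508, 17176, 4265, 3696 and 5092 RPM against 16.7, 32.1, 123.3, 49.7 and 5.89 RPM. The groups did not overlap, although pool 1 at E10.5 was far below the other pools of its stage. *Fgb*, the fibrinogen beta chain (chr3:83040141-83049863, minus strand), stood at 53.6, 2352, 471, 491 and 639 RPM in the pools of E10.5 and at 0.0692, 4.88, 0.389, 0.167 and 0.888 RPM in those of E13.5. Its summed level was 841 RPM (837 to 844) against 1.75 RPM (1.49 to 2.04), a log2 ratio of -8.91 with an SD over pools of 1.01. It had more than 10 reads in 56 cells at E10.5 and in 0 at E13.5. *Fga*, the alpha chain (chr3:83026076-83033627, plus strand), was at 99.9 and 0.17 RPM, and *Fgg*, the gamma chain, at 164.2 and 0.341 RPM. All 3 chains of the clotting protein thus had the same direction in each pool.

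Other secreted proteins of hepatoblasts followed the fibrinogens. *Afp*, the fetal counterpart of albumin, was at 39.5, 752, 969, 539 and 871 RPM by pool at E10.5 and at 15.5, 1.09, 47.9, 0.279 and 0.777 RPM at E13.5. Pool 3 of E13.5 was thus above pool 1 of E10.5, and the log2 ratio was -5.43 (SD over pools 4.08). *Apoa2*, an apolipoprotein of high-density lipoprotein, was at 2030 RPM and 14.2 RPM, with more than 10 reads in 71 and 23 cells. The 23 cells of E13.5 included 13 of the 26 that were positive for none of the 6 lists, where *Apoa2* stood at 8.43 RPM against 7438 RPM in the hepatocyte lineage cells of E10.5. *Rbp4*, which carries retinol in blood, behaved alike (1880 and 10.4 RPM, 88 and 14 cells). The nuclear receptor gene *Hnf4a* and *Foxa3*, both regulators of hepatocyte genes, were at 44.6 and 0.192 RPM and at 41.4 and 0.0639 RPM, with 33 and 36 positive cells at E10.5 and 0 at E13.5. *Lect2*, which encodes a secreted protein of hepatocytes, was among the 15 genes with the lowest ratios (106.97 and 0.181 RPM). *Fst*, the gene of the activin antagonist follistatin, was another of the 15 (27.6 and 0.032 RPM), and 22 of its 26 positive cells at E10.5 were hepatocyte lineage-positive.

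The promoters of the fibrinogen genes are shown because both genes were called and are known targets of HNF1. Each window holds 250 bases before the RefSeq start site and 50 after it on GRCm38.p6. Capitals mark the letters GTTAAT on either strand, taken as an HNF1 half-site. The match lay 43 bases before the start site in *Fga* (chr3:83025903-83026202, plus strand) and 29 bases before it in *Fgb* (chr3:83049814-83050113, minus strand), while 7.1% of 32851 windows of the same length hold these letters.
*Fga*: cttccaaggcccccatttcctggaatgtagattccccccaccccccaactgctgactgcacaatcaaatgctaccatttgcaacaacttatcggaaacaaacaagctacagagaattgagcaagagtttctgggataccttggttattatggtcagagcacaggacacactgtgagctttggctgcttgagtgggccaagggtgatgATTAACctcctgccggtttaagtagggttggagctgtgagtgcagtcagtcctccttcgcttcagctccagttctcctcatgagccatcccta
*Fgb*: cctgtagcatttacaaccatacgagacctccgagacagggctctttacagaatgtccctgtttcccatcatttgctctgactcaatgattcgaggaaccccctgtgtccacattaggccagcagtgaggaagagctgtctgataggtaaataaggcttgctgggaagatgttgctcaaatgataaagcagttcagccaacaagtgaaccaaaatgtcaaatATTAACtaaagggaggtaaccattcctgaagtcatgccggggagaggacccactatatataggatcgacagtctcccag

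Several of the genes with the lowest ratios were found mainly in mesenchyme-positive cells of E10.5. *Msx2* (chr13:53466884-53473074, minus strand) and *Msx1* (chr5:37820485-37824583, minus strand) encode homeodomain repressors that respond to BMP. *Msx2* was at 143.2, 83.1, 127.2, 150.9 and 146.6 RPM in the pools of E10.5 and at 0.346, 0.136, 0, 0.111 and 0.111 RPM in those of E13.5. Its log2 ratio was -9.97 (SD over pools 1.18), and 66 cells of E10.5 but 0 of E13.5 had more than 10 reads. *Msx1* was at 746, 114.7, 234, 198.01 and 60.2 RPM against at most 1.8 RPM in any pool of E13.5, a log2 ratio of -9.33 (SD 1.24). The pools did not overlap for either gene, and *Msx2* varied far less among the pools of E10.5 than *Fgb*. *Prrx2* (64.8 and 0.0959 RPM), a homeobox gene of limb and body wall mesenchyme, and *Dkk2* (130 and 0.192 RPM), a secreted Wnt modulator, had ratios of the same order. *Twist2*, *Prrx1* and *Pdgfra* were the 3 of 13 tested mesenchyme markers that were called, all higher at E10.5, whereas the median of that list was 0.43. Mesenchyme-positive cells were thus fewer at E13.5 while 7 of the 13 tested genes had a higher summed level there.

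All 15 genes named by the lowest ratios kept the call with the added read in proportion to depth. They had log2 ratios of -10.21 to -9.21, with 26 to 70 positive cells at E10.5 and 0 at E13.5. At the top stood *Syne4* (50.4 and 0.0426 RPM), whose product nesprin-4 links the nucleus to kinesin in epithelial cells, and *Irx3* (33.6 and 0.032 RPM), an Iroquois homeobox gene. The others not yet given were *Cldn6* and *Lsr*, genes of tight junctions, *Gal*, which encodes the neuropeptide galanin, *Map9*, *Echdc2* and *Abca8b*. *Map9*, a gene of a microtubule-associated protein, was at 37.1, 32.8 and 35.2 RPM in pools 3 to 5 of E10.5 but at 0.0563 and 0.0172 RPM in pools 1 and 2. In those pools alone its log2 ratio was 0.93, so its call rests on pools 3 to 5.

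Epithelial genes were higher at E10.5 as well, as a set chosen after their values were seen. *Epcam*, a cell adhesion gene of epithelia and hepatoblasts, was at 2.31, 30.6, 217, 32.5 and 110 RPM by pool at E10.5 and at no more than 0.303 RPM in any pool of E13.5 (log2 ratio -8.91, SD over pools 2.69). *Krt8*, a keratin of simple epithelia, was at 103.8 and 1.4 RPM, in 81 and 2 cells. Its partner *Krt18* was at 268 and 35 RPM and was not called, since pool 1 of E13.5 stood at 219 RPM. *Cdh1*, which encodes E-cadherin, was at 18.1 and 0.586 RPM.

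Genes of the pathway in which LGR5 acts were given from lists. Of 7 tested Wnt target genes, 4 were called higher at E10.5 and 0 at E13.5, and the median log2 ratio was -3.57. Of all tested genes, 5.57% and 3.01% were called in these directions. The called genes *Axin2*, *Lef1*, *Dkk1* and *Ccnd1* passed the filter through E10.5 only, as did *Sp5*. Their direction was thus largely set by the filter. *Axin2*, a feedback inhibitor that is read as a reporter of the pathway, was at 34.9, 19.6, 37.9, 48.2 and 27.3 RPM by pool at E10.5 and at 0.0692, 0.0341, 4.06, 3.12 and 0 RPM at E13.5. All pools of E10.5 were above all pools of E13.5, and 68 and 2 cells were positive. *Lef1*, a DNA-binding partner of beta-catenin, was at 93.8 and 3.6 RPM (log2 ratio -4.70, SD over pools 2.10), *Dkk1*, a secreted inhibitor, at 76.2 and 6.42 RPM, and *Ccnd1*, cyclin D1, at 101.8 and 21.8 RPM. *Nkd1*, another inhibitor, stood at 103.65 and 21.2 RPM but was not called, being higher at E13.5 in pool 2 (37.5 against 22.8 RPM). *Sp5* was at 20.5 and 0.0426 RPM without a call, having 0 reads in pool 1 of E10.5.

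Of 6 tested genes of LGR receptors and R-spondins, only *Rspo4* was called, higher at E10.5 (55.3 and 0.0959 RPM, 33 and 0 cells). *Rspo1* (34.7 and 5.97 RPM, 29 and 1 cells) was past the fold in the same direction, and *Rspo3* (6.14 and 66.6 RPM, 6 and 12 cells) in the other. Neither had 1 direction in all pools. *Rspo3* was at 15.2, 0.138, 6.12, 0.912 and 8.79 RPM by pool at E10.5 and at 6.85, 84.6, 94, 55.5 and 55.6 RPM at E13.5, with pool 1 reversed.

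Early developmental timing genes, many of them targets or partners of the let-7 microRNA pathway, were lower at E13.5 in all 10 tested cases, with 4 called and a median of -1.04. Of all tested genes, 5.57% were called in that direction. *Hmga2*, a chromatin protein of embryonic cells, was at 1280, 519, 460, 554 and 645 RPM by pool at E10.5 and at 224, 286, 67.9, 125.5 and 49 RPM at E13.5. The pools did not overlap, and the log2 ratio was -2.03 with an SD of 1.04. *Lin28b*, which blocks let-7 maturation, was at 79.7 and 2.68 RPM, *Trim71*, a let-7 target, at 46.4 and 3.82 RPM, and *Prtg* at 79.1 and 4.84 RPM. *Lin28b*, *Trim71* and *Prtg* passed the filter through E10.5 only, so that their direction was largely set by the filter. Of the 30 *Hox* genes in the list, 12 were at 0 reads in all cells of both stages and 4 were tested, of which 3 were past the fold at E10.5 and 0 were called. *B2m* and *Igf2*, from other lists, had 0 reads at both stages as well, so 0 reads were not taken as absent expression. Whether these genes were counted in the deposited table was not tested. *Hoxa2* was at 30.2 and 0.0107 RPM and had 0 reads in pool 2 at both stages. Of 10 tested retinoid genes, *Rbp4* and *Crabp1* were called higher at E10.5 and *Dhrs3* higher at E13.5. *Crabp1*, a cytoplasmic carrier of retinoic acid, was at 647, 150, 442, 514 and 424 RPM by pool at E10.5 and at 1.18, 96.7, 0.259, 0 and 0.333 RPM at E13.5, where pool 2 alone retained it.

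A metabolic gene with a steady ratio was *Ldhb*, which encodes the heart-type subunit of lactate dehydrogenase. It was at 644, 1105, 421, 289 and 396 RPM by pool at E10.5 and at 59.2, 101.6, 56.9, 65.1 and 41.2 RPM at E13.5, a log2 ratio of -3.05 with an SD of 0.54. More than 10 reads were found in 82.5% of cells at E10.5 and in 15 of 80 (18.8%) at E13.5. It was the only one of 17 tested glycolysis genes to be called, and 13 of them had a ratio below 0 (median -0.71).

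Endothelial genes were among those higher at E13.5. All 11 endothelial markers passed the filter, through E13.5 only (at most 6.64% of cells at E10.5), so that their direction was largely set by the filter. Their median log2 ratio was 4.15, and 4 were called, of which 1 was kept with the added read in proportion to depth. Of all tested genes, 3.01% were called higher at E13.5, or 1.99% with the proportional read. *Lyve1*, a hyaluronan receptor of liver sinusoidal and lymphatic endothelium (chr7:110850607-110863239, minus strand), was at 0.258 RPM (0.2 to 0.327) at E10.5 and 713 RPM (707 to 718) at E13.5. By pool it was at 0, 0, 1489, 1519 and 579 RPM at E13.5, so pools 1 and 2 carried no reads at either stage, and the SD of the log2 ratio over pools was 5.55. It had more than 10 reads in 18 cells of E13.5 and 0 of E10.5. *Stab2*, a scavenger receptor of sinusoidal endothelium, was at 0.277 and 184.1 RPM, in 1 and 17 cells. *Pecam1*, the gene of CD31, was the marker that kept its call, at 5.45, 0.413, 6.12, 31.8 and 3.7 RPM by pool at E10.5 and 12.9, 6, 287, 401 and 117.4 RPM at E13.5. Pools 1 and 2 of E13.5 fell within the range of the E10.5 pools, and pools 3 to 5 above it. *Cdh5*, *Kdr*, *Tek* and *Cldn5* were past the fold but not called, because pool 1, pool 2 or both were higher at E10.5.

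Leukocyte genes, and among them those of macrophages, were the other large group. Of 12 leukocyte markers, 9 passed the filter, all through E13.5 only (at most 3.32% of cells at E10.5), so that their direction was largely set by the filter. Of the 9, 7 were called (6 with the added read in proportion to depth), and their median log2 ratio was 6.18. The share called over all tested genes was 3.01%, or 1.99% with the proportional read. Summed over the list, the level was 30.2 RPM at E10.5 and 2046 RPM at E13.5, and by pool at E13.5 2067, 132.3, 3525, 1542 and 5446 RPM. *Spic*, a transcription factor gene of red pulp and other iron-recycling macrophages (chr10:88674772-88685015, minus strand), was the only one of the 15 genes with the largest ratios to keep its call. It was at no more than 0.38 RPM in any pool of E10.5 and at 100.6, 0.0682, 283, 226 and 1292 RPM in the pools of E13.5, where 9 cells were positive. *C1qb*, of the first complement component and chosen after its values were seen, was at 1.28 and 1023 RPM, with 1218, 0, 1601, 517 and 3567 RPM by pool at E13.5 and 23 positive cells. *Adgre1*, the gene of the macrophage antigen F4/80, and *Marco*, a scavenger receptor, were at 0.715 and 135.8 RPM and at 0.435 and 177.7 RPM, in 0 cells of E10.5 and in 11 and 12 of E13.5. *Timd4* (0.169 and 91.1 RPM, 0 and 10 cells) and *Cd5l* (0.354 and 169.4 RPM, 0 and 11 cells), also chosen after their values were seen, are known from resident macrophages of the liver. *Clec4f*, a marker of Kupffer cells, had more than 10 reads in 4 cells of E13.5, below the share needed for a test. Bulk cells had *Spic*, *Adgre1*, *Timd4* and *Cd5l* over 10 reads in 0% of cells at both stages. The leukocyte list as a whole, however, was positive in 6.9% of bulk cells at E10.5 and in 10.1% at E13.5. It summed to 106.6 and 829 RPM there.

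The 15 genes with the largest ratios at E13.5 had log2 ratios of 10.22 to 11.55, with 8 to 18 positive cells at E13.5 and 0 at E10.5. Of these 15, 14 had 0 reads in at least 1 pool of E13.5 and lost the call with the added read in proportion to depth. They are *Serpina3i*, *Lyve1*, *Ifi207*, *Gimap5*, *Cybb*, *Adh6b*, *Serpina3g*, *Pcdh12*, *Fam167b*, *Csf2rb2*, *Cxcl2*, *Wfdc17*, *Fabp4* and *Cd300c2*. *Pcdh12*, an adhesion gene of endothelium, for example, was at 0, 0, 55.6, 67.5 and 0 RPM in the pools of E13.5. *Cybb*, a subunit of the phagocyte NADPH oxidase, was at 0.207, 0, 115.4, 19.7 and 73.5 RPM. The 15 largest ratios of the list with the proportional read were those of *Spic*, *Aif1*, *Cd86*, *Marco*, *Hbb-bt*, *Hemgn*, *Fcgr3*, *Hbb-bs*, *Adgre1*, *Cyth4*, *Ikzf1*, *Nckap1l*, *Gatm*, *Tnfaip3* and *Nrros*, a selection made after seeing the data. *Gatm*, the first enzyme of creatine synthesis, was positive in more cells than most of them, 37 of 80 at E13.5 and 7 at E10.5. It was at 0.319, 9.1, 4.49, 5.51 and 0.93 RPM by pool at E10.5 and at 184.3, 99.3, 881, 535 and 380 RPM at E13.5, and the pools did not overlap.

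**Figure D3:**
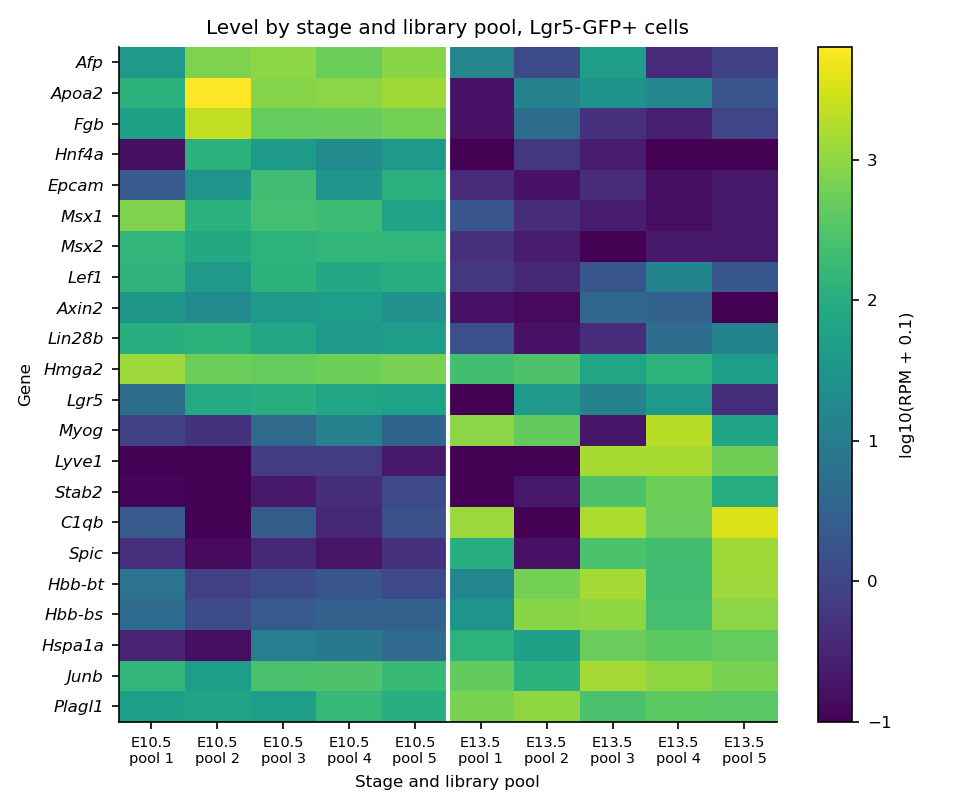
Levels of 22 named genes in each stage and library pool, as log10(RPM + 0.1). *Msx2*, *Fgb* and *Hmga2* were lower in every pool of E13.5, *Plagl1*, *Hspa1a* and *Junb* were higher in each pool at E13.5 than in the same pool at E10.5, and *Lyve1*, *Stab2* and *C1qb* were dark in pool 2 of both stages.

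Globin genes were higher at E13.5. Of 6 tested globins, 4 were called, the adult-type genes *Hbb-bt*, *Hbb-bs*, *Hba-a1* and *Hba-a2*, under both ways of adding the read. The share called in that direction over all tested genes was 3.01%, or 1.99% with the proportional read. *Hbb-bt* (chr7:103812524-103813996, minus strand) was at 6.74, 0.705, 1.17, 1.86 and 1.06 RPM by pool at E10.5 and at 14.9, 635, 1419, 212 and 1246 RPM at E13.5. The sums were 2.32 RPM (2.14 to 2.51) and 710 RPM (705 to 716), a log2 ratio of 8.26 with an SD over pools of 3.89, and pool 1 differed least. *Hbb-bs* was at 2.77 and 673 RPM, and *Hba-a1* at 6.13 and 306 RPM. *Hbb-bt* had more than 10 reads in 41 of 80 cells at E13.5 (51.2%) and in 25 at E10.5 (11.8%). Only 9 cells of E13.5 were erythroid-positive. Among mesenchyme-positive cells, which should lack globin, 11 of 21 at E13.5 had more than 10 *Hbb-bt* reads, and at 94.4 RPM in the sum. Of the 19 that were positive for no other of the 6 lists, 10 had more than 10 such reads, at 15.6 RPM in the sum. In the E13.5 bulk sort, where 81.1% of cells were erythroid-positive, 83% of cells had them. The share of GFP+ cells with *Hbb-bt* reads is therefore not above that of cells of another type and was not read as a share of cells expressing it. *Hbb-bt* and *Hbb-bs*, like *Hba-a1* and *Hba-a2*, are near-identical copies, so the split of reads between them is uncertain. *Hemgn*, an erythroid nuclear protein gene, was called as well (0.119 and 35.3 RPM, 0 and 9 cells), while no haem synthesis or iron uptake gene of 11 tested was called or past the fold (median 0.69).

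The promoter of *Hbb-bt* (chr7:103813874-103814173, minus strand, the same RefSeq window) is shown because this gene had the largest ratio among the globins. Capitals mark every match, on either strand, to the letters of boxes known from adult beta-globin promoters. Which of the matches act as boxes was not tested. CACCC (57.5% of windows), the box bound by KLF1, lies at 3 places, the nearest 89 and the farthest 140 bases before the start site, CCAAT (37.4%) 80, 75 and 36 bases before it, and TATAA (24.9%) 229 and 28 bases before it.
*Hbb-bt*: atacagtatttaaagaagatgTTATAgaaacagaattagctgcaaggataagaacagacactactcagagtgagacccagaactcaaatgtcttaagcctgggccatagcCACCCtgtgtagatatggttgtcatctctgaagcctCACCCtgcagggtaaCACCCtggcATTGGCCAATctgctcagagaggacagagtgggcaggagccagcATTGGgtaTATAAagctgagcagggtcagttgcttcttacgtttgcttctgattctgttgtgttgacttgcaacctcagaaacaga

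Genes of muscle differentiation were higher at E13.5 in the sums but were not called. *Myog*, the myogenin gene (chr1:134289989-134292548, plus strand), was at 0.77, 0.396, 4.56, 12.1 and 3.44 RPM by pool at E10.5 and at 915, 455, 0.0864, 1926 and 62.6 RPM at E13.5. Pool 3 had the other direction, and the log2 ratio of the sums was 7.33 with an SD over pools of 6.35. *Myod1*, which drives the muscle programme, was at 3.93 and 164.3 RPM in 6 and 16 cells, *Tnnt1*, slow skeletal troponin T, at 13.3 and 288 RPM in 22 and 29 cells, and *Neb*, nebulin, at 18.4 and 259 RPM in 19 and 14 cells. The skeletal muscle progenitor list held 6 genes, of which 4 were tested, with 2 ratios above 0, 2 below, 0 called and a median of 0.20, and its summed level was 152.3 and 302 RPM. *Pax3*, a regulator of migrating muscle progenitors, was at 90.5 and 23.5 RPM in 25 and 5 cells but higher at E13.5 in pools 1 and 2, and *Pax7*, which did not pass the filter, was at 0.0731 and 54.6 RPM. Progenitor-positive cells numbered 19 at E10.5, all in pools 3 to 5, and 5 at E13.5.

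Stress and immediate early genes, which are induced within minutes by dissociation as well as by signals, were higher at E13.5. Of 20 tested genes of that list, 6 were called and 17 had a ratio above 0 (median 1.19), beside 3.01% of all tested genes called higher at E13.5. *Junb*, an AP-1 transcription factor gene, was at 144.8, 48.8, 266, 285 and 171.5 RPM by pool at E10.5 and at 451, 121.6, 1447, 1015 and 689 RPM at E13.5. Its log2 ratio of 2.02 had an SD of only 0.42 over pools, while the share of positive cells was the same, 50.7% and 50%. At E13.5 it stood at 1490 RPM in endothelium-positive and 1216 RPM in leukocyte-positive cells but at 106.1 RPM in the 26 cells without a list. *Hspa1a*, an inducible heat shock protein gene (chr17:34969190-34972156, minus strand), was at 0.207, 0.0516, 11.3, 8.55 and 4.25 RPM by pool at E10.5 and at 128.2, 56.8, 518, 393 and 461 RPM at E13.5. The pools did not overlap, the log2 ratio was 5.92 (SD 1.99), and 17 cells at E10.5 (8.06%) and 21 at E13.5 (26.2%) were positive. *Hspa1b*, its near-identical copy, *Hspb1*, *Ier3* and *Zfp36* were the others called, and reads can be divided wrongly between *Hspa1a* and *Hspa1b*. In the bulk cells the list summed to 3181 RPM at E10.5 and 2236 RPM at E13.5, and in the GFP+ cells to 2944 and 5790 RPM. The part of the digestion time in these values was not tested.

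The promoter of *Hspa1a* (chr17:34972107-34972406, minus strand, RefSeq window as above) is shown because its product reports heat shock factor activity. Capitals mark GAANNTTC (7.86% of windows), a pair of inverted heat shock units, and CCAAT, read here on the other strand, which lies 67 bases before the start site and nearer to it than the heat shock units.
*Hspa1a*: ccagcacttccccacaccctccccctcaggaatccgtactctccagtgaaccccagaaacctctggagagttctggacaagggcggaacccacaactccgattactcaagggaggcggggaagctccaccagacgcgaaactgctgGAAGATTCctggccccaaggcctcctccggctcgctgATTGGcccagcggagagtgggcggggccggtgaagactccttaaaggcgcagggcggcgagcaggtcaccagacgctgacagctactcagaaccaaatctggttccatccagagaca

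*Plagl1*, an imprinted zinc finger gene that restrains the cell cycle (chr10:13060504-13131694, plus strand), was at 51.3, 64.9, 49.8, 166.1 and 102.1 RPM by pool at E10.5 and at 690, 1032, 264, 398 and 382 RPM at E13.5. No pools overlapped, the log2 ratio was 2.83 with an SD of 1.18, and 64 and 42 cells were positive. It was the only one of 9 tested imprinted growth genes to be called (median 0.31). Of 19 tested genes of collagens and matrix, 5 were called higher at E13.5 and 0 at E10.5 (median 1.09), beside 3.01% and 5.57% of all tested genes. *Col4a1*, a chain of basement membrane collagen, was at 14.8, 9.65, 24.9, 20 and 11.5 RPM by pool at E10.5 and at 44, 76.7, 119.3, 194.3 and 92.4 RPM at E13.5, again with no overlap (log2 ratio 2.72, SD 0.70). The other called genes were *Col6a1*, *Col6a2* and *Col6a3*, the chains of collagen VI, and *Col14a1*.

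**Figure D4:**
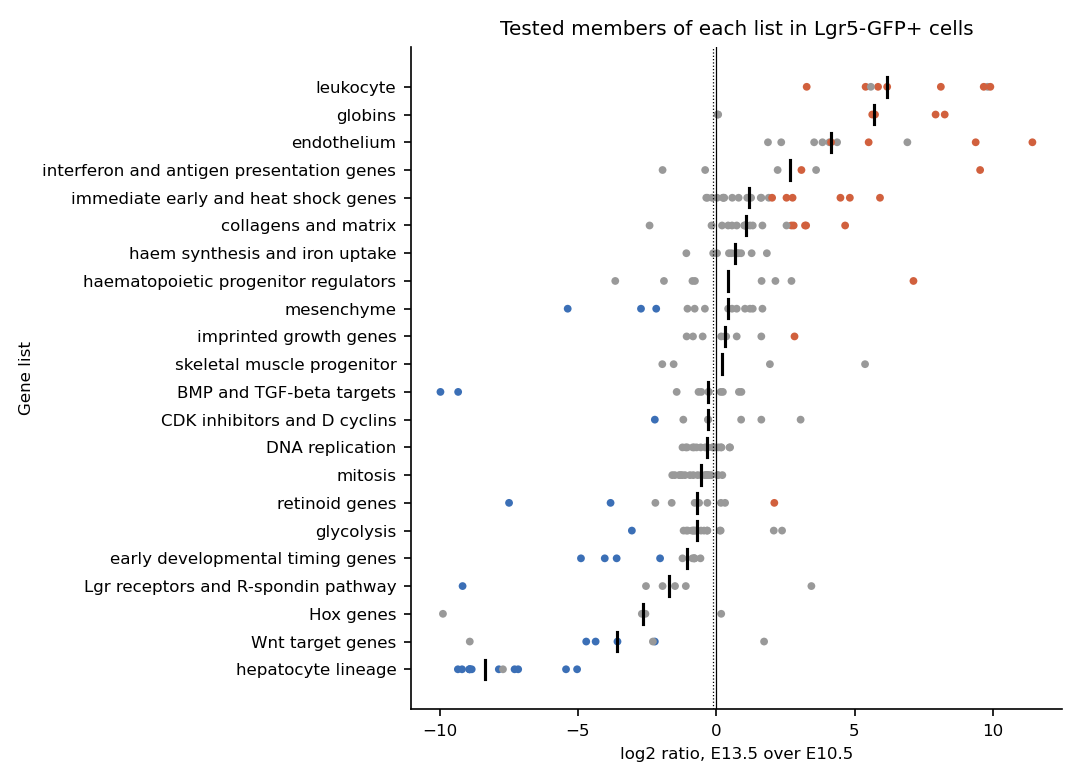
Log2 ratio, E13.5 over E10.5, of each tested gene of the 22 lists with at least 4 tested genes; coloured points are called genes (blue higher at E10.5, red higher at E13.5), black bars the list medians and the dotted line the median of all tested genes at -0.12. Medians run from -8.35 for the hepatocyte lineage to 6.18 for leukocyte genes, and mitosis and DNA replication genes hold no called gene.

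Several lists held few or no called genes. Of 19 tested mitosis genes, 0 were called or past the fold, 16 had a ratio below 0 and the median was -0.54. *Ube2c*, of the anaphase-promoting pathway, was at 1116, 443, 832, 869 and 855 RPM by pool at E10.5 and at 388, 305, 352, 323 and 318 RPM at E13.5, so that no pools overlapped (log2 ratio -1.29, SD 0.40). DNA replication genes had 0 called of 18 and a median of -0.32. Of 11 BMP and TGF-beta targets only *Msx1* and *Msx2* were called, and of 7 genes of CDK inhibitors and D cyclins only *Ccnd1*. *Cdkn1a*, the p21 gene, was past the fold at E13.5 (43.1 and 357 RPM) but was lower there in pool 5. Of 8 haematopoietic progenitor regulators, *Ikzf1* was called higher at E13.5 (0.273 and 38.3 RPM, 2 and 8 cells). Of 6 interferon and antigen presentation genes, *Ifitm3* (43.7 and 370 RPM) and *Psmb8* were called, and *Ifitm3* alone kept the call with the proportional read. The 2 tested erythroid markers included 1 called gene, *Hemgn*, and the 2 megakaryocyte, 2 mesothelium and 3 hepatic stellate markers none. *Pf4*, the platelet factor 4 gene, was at 305 and 1898 RPM, with 1.62 RPM in pool 4 of E10.5 and 823 RPM in pool 3. Of the cholangiocyte markers only *Sox9* was tested (118.55 and 32.4 RPM, 93 and 6 cells) and was not called. No gene of the neural list or of the heart muscle list passed the filter.

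To narrow the marker content, cells positive for mesenchyme with fewer than 3 hepatocyte lineage, erythroid, leukocyte and megakaryocyte genes over 10 reads were taken. This mesenchyme class held 28, 7, 26, 30 and 18 cells in pools 1 to 5 at E10.5 and 19 at E13.5 (3, 8, 3, 3 and 2). At E10.5, 20 cells were at the limit of exactly 3 genes, and at E13.5 none was. The mesenchyme markers summed to a median of 2618 RPM per cell at E10.5 and 17081 RPM at E13.5. The cells were thus not matched in the markers of the class itself, and endothelium and muscle lists were not part of the rule. Pools 1 to 4 had at least 3 cells of each stage and gave the within-pool ratios. Of 10041 genes tested, 1.34% were called higher at E13.5 and 1344 (13.4%) higher at E10.5, the median of all tested genes was -0.47, and genes detected per cell had a median of 6646 and 4634. The unequal counts thus stand beside fewer genes detected at E13.5. With the proportional read, 88 genes were called higher at E13.5 (0.876%). A class of erythroid cells, planned in the same way, held 1 and 3 cells and was not compared.

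Within the mesenchyme class, matrix genes were higher at E13.5. The 22 genes of collagens and matrix summed to a median of 2962 RPM per cell at E10.5 and 23444 RPM at E13.5. Of 21 tested, 7 were called higher at E13.5, beside 1.34% of all genes tested in the class. Since 7 of the 22 genes also defined the class, the other 15 were summed separately, with medians of 1393 and 7390 RPM per cell. Their sums by pool were 1622, 1274, 2086 and 3969 RPM at E10.5 and 3755, 8428, 7965 and 7679 RPM at E13.5, higher in pools 1, 2, 3 and 4. *Col6a1* was at 10.1 and 466 RPM, with more than 10 reads in 12 and 9 cells. *Col3a1*, a fibrillar collagen gene that is part of the class rule, was at 920 and 4633 RPM. *Plagl1* was at 47.8, 138.6, 62.6 and 191.9 RPM by pool and at 461, 1066, 1364 and 935 RPM, in 51 and 16 cells. Imprinted growth genes summed to 4994 and 13292 RPM per cell by the median, and *Plagl1* and *Igf2r*, which clears IGF2 from the cell surface, were called.

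Some genes higher at E13.5 in the class came from a few cells. *Colec10*, a collectin (0.897 and 495 RPM), and *Reln*, reelin, a gene known from hepatic stellate cells (1.35 and 418 RPM), had more than 10 reads in 2 cells at E10.5 and 6 of 19 at E13.5 each. *Rspo3* was at 10 and 199.3 RPM in 5 and 7 cells and was called here, as was *Hgf*, the hepatocyte growth factor gene (0.409 and 46.3 RPM, 1 and 4 cells). *Ccl7* and *Arsi*, with the largest ratios, rested on 3 and 2 cells.

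Mitosis genes, *Msx1* and *Msx2* were lower at E13.5 in the class. Mitosis genes summed to a median of 6235 RPM per cell at E10.5 and 1275 RPM at E13.5. All 19 tested had ratios below 0, and the list median was -2.20. Of them, 8 were called higher at E10.5, beside 13.4% of all genes tested in the class. By pool, the sums were 7228, 5423, 6004 and 6484 RPM at E10.5 and 1519, 917, 4080 and 3977 RPM at E13.5. By the sums, the largest gaps were thus in pools 1 and 2. The mitosis medians per cell by pool were 8002, 5311, 4913 and 6675 RPM at E10.5 and 1465, 26.8, 6425 and 4619 RPM at E13.5. Pool 3, with 3 cells at E13.5, thus had the other direction by the median. The low median of E13.5 came from pools 1 and 2. *Ube2c* was at 1119 and 123.3 RPM, in 94 and 3 cells, and *Ccnb1*, cyclin B1, at 200 and 12.7 RPM in 82 and 1 cells. Of 18 DNA replication genes 1 was called and the median was -0.16. *Msx2* was at 187.9, 140.7, 193.04 and 190.7 RPM by pool at E10.5 and at 0, 0.118, 0 and 0 RPM at E13.5, in 56 and 0 cells, and *Msx1* was at 378 and 0.523 RPM. *Fras1*, an extracellular matrix gene of embryonic epithelia and basement membranes (155.7 and 0.0476 RPM, 54 and 0 cells), and *Dkk2* (232 and 0.333 RPM) were alike.

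Wnt targets in the class summed to a median of 479 RPM per cell at E10.5 and 6.9 RPM at E13.5. Of 9 tested, 5 were called higher at E10.5, beside 13.4% of all genes tested in the class. The level summed over all cells of the class differed less, at 619 and 341 RPM. By pool, the sums were 483, 415, 788 and 650.4 RPM at E10.5 and 3.24, 323, 562 and 317 RPM at E13.5, so that the gap was largest in pool 1. The medians per cell by pool were 138.5, 179.5, 809 and 574 RPM at E10.5 and 3.11, 2.3, 461 and 196.7 RPM at E13.5. The low median of E13.5 thus came from pools 1 and 2. *Lef1* was at 146.5 and 12.6 RPM in 63 and 1 cells. *Hox* genes summed to 272 and 0 RPM by the median and to 362 and 60.6 RPM over all cells, with 4 called of 8 tested, among them *Hoxc4* (47.9 and 1.95 RPM, 47 and 1 cells). Their medians by pool were 29.4, 7.74, 336 and 337 RPM at E10.5 and 2.03, 0, 9.85 and 0 RPM at E13.5. In pools 1 and 2 the *Hox* median was thus already low at E10.5. The *Hox* sums by pool were 318, 333, 459 and 346 RPM at E10.5 and 3.57, 98.6, 77.2 and 38 RPM at E13.5. Early developmental timing genes summed to 1796 and 372 RPM by the median and to 1902 and 929 RPM over all cells, with 1482 against 1408 RPM in pool 2, and *Lin28b* (57.7 and 0.476 RPM) and *Trim71* (33 and 0.0951 RPM) were called. *Hmga2* was not, being higher at E13.5 in pool 2. *Lgr5* was at 32.4 RPM in 28 cells and at 87.4 RPM in 2, with opposite directions among pools, so that its level in the class rests on 2 cells at E13.5.

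**Figure D5:**
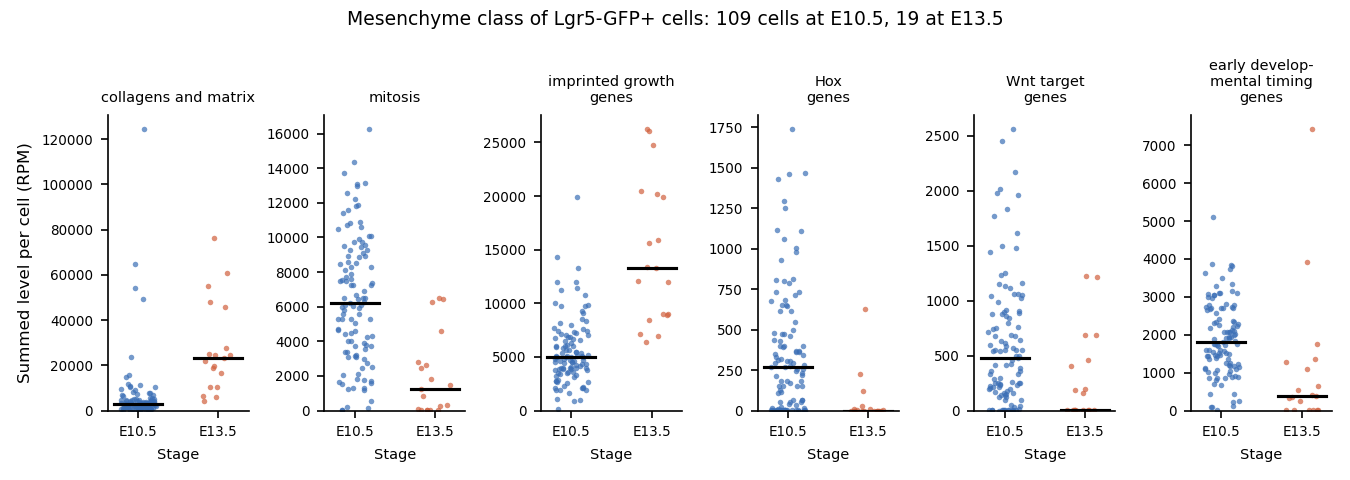
Summed level per cell (RPM) of 6 gene lists in the mesenchyme class, one point per cell (19 at E13.5), with the median as a black line. Matrix and imprinted growth genes had higher medians at E13.5 (23444 against 2962 RPM and 13292 against 4994 RPM), and mitosis, Hox, Wnt target and early developmental timing genes lower ones.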

How the data were processed

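The authors aligned reads to GRCm38.p6 with STAR 2.6.0c, and the deposited table holds raw counts of reads per gene made with featureCounts of Subread 1.6.2 on the Ensembl annotation, after their filters on cells. A deposited table of normalised values, a score without a unit, was not used. All 653 columns were matched to labels (0 unused), and no pair of columns was identical (0 pairs). Of 54195 genes, 54042 were named by the annotation of the same build, and 27729 had 0 reads at both stages.

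Counts were summed per stage and pool in Python 3.11.15. Tested genes had more than 10 reads in at least 10% of cells of either stage. A stage under 3 reads was set to 3, and a pool got 1 added read per stage. The rule was tested on simulated data with known changes. These data held no cell types and no pool effects, and the changes were larger than the fold of the rule. The simulation therefore does not bear on calls from mixed cells. Named genes are the 15 protein-coding called genes with the largest ratio in each direction, without ribosomal and predicted genes, *Lgr5*, and from each list the members past the fold or else the most abundant. Genes outside this rule are said to be chosen after their values were seen, or are members of a list given for contrast. Members and lists were chosen with earlier results of these data known. Alternatives included TMM factors from edgeR 4.0.16, size factors from DESeq2 1.42.0, thinning to 100000 reads per cell, other folds and leaving out pools.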

Additional observations from a re-analysis of the deposited data

Results flagged for a closer look

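For *Dhrs3* and *Plagl1*, every pool of the Lgr5-GFP+ cells was higher at E13.5 and every pool of the bulk cells lower, so the direction by stage was opposite in the 2 sorts. This difference was not tested. *Plagl1* had a log2 ratio of 2.83 in Lgr5-GFP+ cells and of -3.15 in bulk cells, where its level was 163.5 RPM at E10.5 and 18.5 RPM at E13.5. *Dhrs3*, a retinaldehyde reductase gene, had log2 ratios of 2.10 and -2.18, with 45.3 and 10.01 RPM in bulk cells. In bulk cells the share of mesenchyme-positive cells was 60.1% at E10.5 and 0.629% at E13.5, and its part in these values was not tested.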

How the results depend on the processing

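No paired analysis was possible because the results come from no test, the labels giving replicate numbers to no animal or sort, and the stages were set against each other within pools as ratios only. The counts of called genes, given here as a percent of the 9606 genes tested, depended on the settings. Genes higher at E13.5 (3.01%) came to 17.99% without the filter on cells, where more genes enter, 4.52% at a fold of 2, 1.97% at a fold of 8, 8.37% in pools 3, 4 and 5 only, 1.99% with the proportional read, and 2.36% to 5.09% with each pool left out in turn (5.09% without pool 2). Genes higher at E10.5 (5.57%) came to 9.19%, 10.8%, 3.28% and 12.4% under the first 4 of these, 9.30% by the mean of the pool ratios, and 6.58% to 8.36% with a pool left out (8.36% without pool 1). Fewer pools have to share a direction in these repeats. In pools 1 and 2 only, 311 genes were higher at E13.5, of which 68 are among the 289. Without cells positive for at least 2 lists, added after seeing the data, 2.02% and 6.15% were called, and TMM gave 3.196% and 5.30%. Differences in the share of positive cells (E13.5 minus E10.5, in percentage points) changed when 1 read sufficed. The hepatocyte lineage share turned from -26.2 to 5.24, erythroid went from 9.35 to 48.7, leukocyte from 19.1 to 7.09, mesenchyme from -29.2 to -5.09 and *Lgr5* from -25.6 to -14.3. Leaving out a pool gave -32.8 to -11.5 for hepatocyte lineage (-11.5 without pool 2), -40.8 to -23.7 for mesenchyme (-40.8 without pool 2) and 13.47 to 33.4 for endothelium (without pool 3 and pool 2). In the mesenchyme class (10041 genes tested), 1.34% higher at E13.5 became 3.69% with at least 5 mesenchyme genes per cell (73 and 18 cells), 0.876% with the proportional read and 1.32% to 3.13% with a pool left out (3.13% without pool 2, and 2.06% to 2.46% without pool 1, 3 or 4), and 13.4% higher at E10.5 became 22.1% with at least 5 genes. *Map9* turned to 0.93 in pools 1 and 2 only, where 12 named genes had the other sign. TMM kept all named genes within the spread over pools. Its factors, 1.013 at E10.5 and 0.987 at E13.5, shift all ratios alike by a small amount, so this says nothing about single genes. The causes were not tested.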
